A study of Homo sapiens with 4 samples.

Results

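The zinc finger genes of chromosome 19q13.41 are a row of neighbouring genes that mostly encode KRAB zinc finger proteins. They were chosen by symbol, as 39 named genes, and all 39 were found among the 62696 genes counted in each library. Expression was measured by RNA-seq in NT2 cells (NTERA-2), a human embryonal carcinoma line with features of pluripotent stem cells. One group was NT2 cells carrying an empty vector, listed as wild type (1 library, called the control library here). The other group was NT2 cells listed as HYDIN2 knockdown (3 libraries, replicates 1 to 3). All were grown in the same medium with serum. The method of knockdown is not given in the sources used here, nor is it said that replicates are separate cultures, so p-values measure only the spread between these samples, which may be technical.

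KRAB zinc finger proteins bind DNA through a row of C2H2 fingers, each of which contacts a few bases, so that the order of fingers sets the sequence a protein recognises. The KRAB box of most of them recruits TRIM28, which brings the histone methyltransferase SETDB1 and HP1 proteins and packs the bound site into heterochromatin. Many bind transposable elements and keep them silent, in pluripotent and early embryonic cells above all. The family grew by tandem duplication, and for that reason its genes sit in clusters, carry near-identical stretches and often share promoter sequence.

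The level of HYDIN2 itself was higher than in the control library in labelled replicates 1 and 2 and lower only in replicate 3. HYDIN2 had 12 counts in the control library and 150, 112 and 11 counts in the libraries labelled knockdown replicates 1, 2 and 3. In CPM (counts scaled to library size) this was 0.50 against 2.41, 1.88 and 0.35. Each direction below is therefore that of libraries labelled knockdown, not of a measured loss of HYDIN2. Library totals ran from 25181737 to 62904698 counts. The summed level of 10 embryonal carcinoma markers was 8200 CPM in the control library and 7818 to 9631 CPM in the others, with a count for all 10 in each library. The 3 blood markers summed to at most 0.273 CPM, while 8 neural markers summed to 24.1 CPM in the control library and 52.1 to 78.8 CPM in the others. PAX6, a neural marker, had 0 counts in the control library and 957, 784 and 92 in the others. The part of neural markers in the results was not tested. The 7 fibroblast and mesenchyme markers summed to 504 CPM in the control library and 420 to 645 CPM in the others. The 3 endoderm markers summed to 1.96 CPM against 3.80 to 8.45 CPM, and the 3 trophoblast markers to 7.25 CPM against 4.45 to 12.3 CPM. Labelled replicates 1 and 2 were close to each other and replicate 3 stood apart: the median absolute log2 difference over 15880 genes was 0.10 between replicates 1 and 2 and 0.53 between replicate 3 and their mean. Results are therefore also given without replicate 3.

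The genes lie within 2009 kb of chromosome 19, from 51571298 to 53580269 on GRCh38 (GENCODE 29), from ZNF175 on the centromere side to ZNF331. All 39 are annotated as protein coding, 17 on the plus and 22 on the minus strand. The longest annotated coding sequence of each encoded 462 to 970 residues (median 617) and 7 to 26 matches (median 13) to the C2H2 finger spacing, which is C, 2 residues, C, 12 residues, H, 3 to 5 residues, H. ZNF845 had the most matches, 26, and ZNF577, ZNF766 and ZNF701 the fewest, 7. For 436 other ZNF genes with a coding sequence the median was 10 matches in 571 residues. The longest transcripts ran from 2086 to 7960 nt (median 4442), against a median of 3519 nt over all genes tested, and their median GC content was 41.5% against 47.8%.

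Near-identity and overlap limit what a count says of a single gene here. In 15 of 39 genes, over 5% of the 50-base windows of the longest transcript were found letter for letter in a transcript of another gene. ZNF468 and ZNF320 were the extreme, with 99.2% and 99.5% of windows shared, because their annotated models run through each other. In ZNF808 18.5%, in ZNF888 16.3%, in ZNF600 16.0% and in ZNF611 12.3% of windows were shared. ZNF808 and ZNF888 shared most with ZNF701, and ZNF600 and ZNF611 with each other. ZNF331, ZNF480, ZNF534, ZNF577 and ZNF613 shared none. On the same strand, 13 of the genes overlap another of the 39, among them ZNF432 with ZNF841 and ZNF415 with ZNF347, and 16 overlap an annotated gene on the other strand. The strand setting and the handling of shared reads in the authors' counting are not given in the sources used here, so values of these genes are uncertain.

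The genes also share letters at their starts. RefSeq promoter windows on GRCh38.p14, of 250 bases before and 50 after an annotated start, were matched for 32 of the 39 genes (45 windows). CCGGAAG, the core bound by ETS family factors, was found on either strand in windows of 22 of these 32 genes, or 55.6% of their windows. Over all 35116 RefSeq windows the share was 10.3%, and it was 36.6% for other ZNF genes of chromosome 19 and 31.0% for ZNF genes of other chromosomes. The longer string ACCCGGAAGC is the string of 10 letters holding CCGGAAG that occurred in the largest number of these genes, so it was picked from these windows. It occurred in 35.6% of the cluster's windows (14 genes), in 2.78% of those of other chromosome 19 ZNF genes, in 1.94% of those of ZNF genes elsewhere and in 0.444% of all. In 21 of the genes CCGGAAG, read in the direction of the gene, began within 20 bases of at least 1 annotated start. The lines below give 30 bases round it, 5′ to 3′ in the direction of the gene and with CCGGAAG in capitals, to show how alike these starts are; ZNF534 is shown for the letter after the core, and ZNF175 for a start without the longer string.
ZNF611 (chr19:52735023-52735052, minus strand): attaacgcaaacCCGGAAGcggatcgggtg
ZNF808 (chr19:52527660-52527689, plus strand): attaacgcaaacCCGGAAGcggatcgggtg
ZNF845 (chr19:53333741-53333770, plus strand): attcgcgcaaacCCGGAAGcggatcgcatg
ZNF813 (chr19:53467737-53467766, plus strand): attcgcgaaaacCCGGAAGcggatcgcgtg
ZNF765 (chr19:53395141-53395170, plus strand): cttcgcgcagacCCGGAAGcggacggcgtg
ZNF83 (chr19:52638334-52638363, minus strand): atgcgcgcaaacCCGGAAGcggattatgtg
ZNF816 (chr19:52962858-52962887, minus strand): attggcacagacCCGGAAGcggatggcgtg
ZNF320 (chr19:52897671-52897700, minus strand): attggcatagacCCGGAAGcggatggcagg
ZNF880 (chr19:52369925-52369954, plus strand): tttcctggagacCCGGAAGcagattacgtg
ZNF534 (chr19:52429140-52429169, plus strand): tttcctgcagacCCGGAAGtcgagatcatg
ZNF175 (chr19:51571253-51571282, plus strand): atgtaacccaaaCCGGAAGtggcctagagc

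The 250 bases upstream of a start are shown for 3 genes chosen with their values known. ZNF611 and ZNF808 have starts alike over those bases and different values in labelled replicate 3, and ZNF836 is high in that replicate with an unlike start. Capitals mark the GC box GGGCGG on either strand. The windows are chr19:52735045-52735294 on the minus strand for ZNF611, chr19:52527418-52527667 on the plus strand for ZNF808 and chr19:52171622-52171871 on the minus strand for ZNF836.
ZNF611: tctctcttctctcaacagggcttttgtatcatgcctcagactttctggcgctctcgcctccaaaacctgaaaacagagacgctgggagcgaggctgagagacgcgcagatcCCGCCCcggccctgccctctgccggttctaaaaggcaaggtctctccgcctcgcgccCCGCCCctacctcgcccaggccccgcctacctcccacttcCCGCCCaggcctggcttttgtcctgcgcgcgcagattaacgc
ZNF808: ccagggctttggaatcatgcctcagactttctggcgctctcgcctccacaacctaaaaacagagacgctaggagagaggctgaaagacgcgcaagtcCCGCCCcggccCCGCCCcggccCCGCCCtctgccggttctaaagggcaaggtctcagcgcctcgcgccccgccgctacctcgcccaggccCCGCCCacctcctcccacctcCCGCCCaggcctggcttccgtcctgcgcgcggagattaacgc
ZNF836: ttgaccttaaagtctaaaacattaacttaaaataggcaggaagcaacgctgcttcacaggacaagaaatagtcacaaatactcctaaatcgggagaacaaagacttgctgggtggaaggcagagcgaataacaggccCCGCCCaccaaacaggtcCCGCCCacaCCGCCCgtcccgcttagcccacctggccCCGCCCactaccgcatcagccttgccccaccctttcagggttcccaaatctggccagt
The upstream bases of ZNF611 and ZNF808 aligned with 81.8% identity, and those of ZNF611 and ZNF845 with 82.7%. ZNF611 and ZNF836 aligned with 48.8%. GC boxes numbered 3 upstream of ZNF611, 5 upstream of ZNF808 and 4 upstream of ZNF836. GGGCGG was present in 66.7% of the cluster's windows and in 45.0% of all RefSeq windows. For other ZNF genes of chromosome 19 the share was also 66.7%, and for ZNF genes of other chromosomes it was 58.1%. TATAAA, the TATA box, was found in 1 of the 32 genes, ZNF841 (2.22% of windows against 11.5% of all). It was as rare in other ZNF genes of chromosome 19 (2.78%) and was in 5.81% of windows of ZNF genes elsewhere. Neither share was thus particular to the cluster.

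All 39 genes had counts in every library, and most were expressed at a moderate level. The median over the genes was 18.2 CPM in the control library (0.25 to 65.2) and 16.1, 14.8 and 19.1 CPM in labelled replicates 1, 2 and 3. Together the 39 genes took 907 CPM in the control library and 774, 740 and 907 CPM in the replicates. Per kb of longest transcript, the mean of the group means had a median of 3.99 CPM, against 5.77 CPM over all genes tested. In bulk RNA, fewer cells expressing a gene and less RNA per cell cannot be told apart.

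ZNF649, ZNF880 and ZNF677 had the highest levels per kb. ZNF649 (ENSG00000198093.11) had 1553 counts in the control library and 4174, 4055 and 1253 counts in labelled replicates 1, 2 and 3. Per kb this was 20.2, 21.0, 21.2 and 12.5 CPM, so replicate 3 was the low library and the others were alike. ZNF677, described as silenced by methylation in several tumours, had 1007 counts in the control library and 2676, 2432 and 1055 in the replicates, with a mean log2 difference of -0.11 ± 0.18 (SD, n = 3). At the other end, ZNF534 (ENSG00000198633.11) had 6 counts in the control library and 36, 58 and 8 in the replicates. ZNF534 was the 1 gene of the 39 below the minimum level, a mean CPM of 1 over the group means, so 38 genes entered the comparison. The genes kept much the same order in all libraries: across the 39 genes, which are not independent replicates, the Spearman correlation of the level per kb between pairs of libraries ran from 0.901 to 0.987, with the gene lengths shared.

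**Figure D1:**
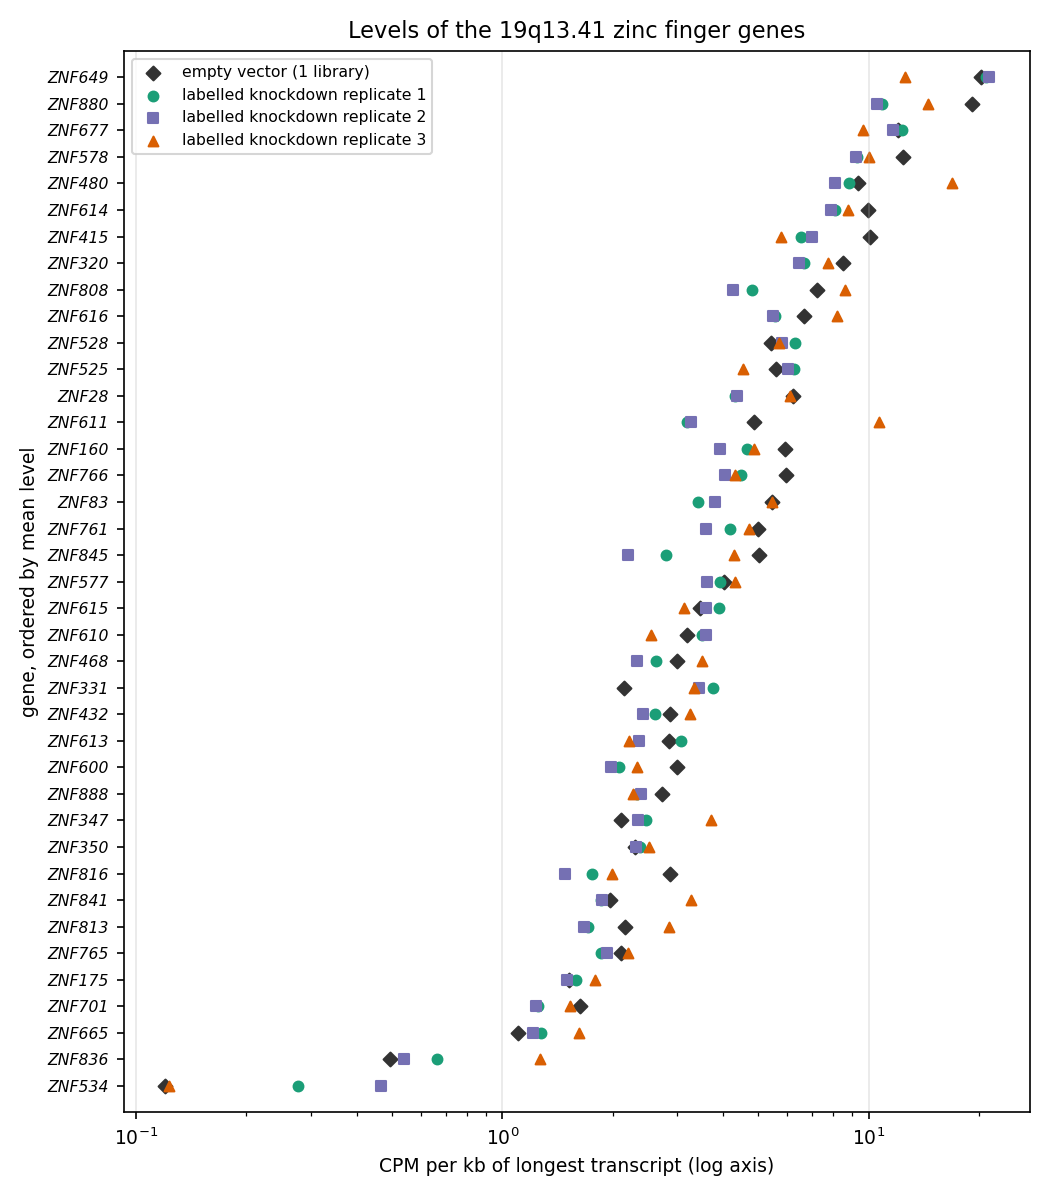
Level of each of the 39 genes in CPM per kb of longest transcript (log axis), 1 symbol per library, ordered by mean level. ZNF649 and ZNF880 sit at the top and ZNF534 at the bottom with 0.12 CPM per kb in the control library, and the largest gap between libraries of a well counted gene is that of ZNF611 in labelled replicate 3, at 10.7 CPM per kb.

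The comparison of the libraries labelled knockdown with the control library asked whether the cluster changed with the labelled knockdown of HYDIN2. None of the 38 genes tested lay 2-fold from the control library in all 3 labelled knockdown libraries. Over all 15880 genes tested, 3.65% were higher and 2.72% lower by that rule. The mean log2 differences of the 38 genes ran from -0.75 (ZNF845) to 0.70 (ZNF331), with a median of -0.11 beside -0.02 over all genes. Their lower and upper quartiles were -0.36 and 0.02, beside -0.47 and 0.45 over all genes. In 18 of the 38 genes the mean difference was smaller than its SD over the 3 libraries, or 47.4%, beside 38.8% of all genes. The control side is a single library and so has no spread of its own. edgeR's quasi-likelihood test with Benjamini-Hochberg adjustment over 26029 genes called 0.0% of genes, and the adjusted p of the 39 genes ran from 0.449 (ZNF331) to 0.997; 3023 of all genes and 0 of the 39 had an unadjusted p under 0.05. DESeq2's Wald test called 1.53% of genes (253 of 16512) and none of the 38 it tested in the cluster, where the lowest adjusted p was 0.51.

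ZNF331, an imprinted gene at the telomere end of the cluster, was the 1 gene of the 38 that was at least 1.5-fold higher in each labelled knockdown library, where 10.0% of all genes were. It (ENSG00000130844.19; chromosome 19, 53519527 to 53580269, plus strand) had 260 counts in the control library and 1176, 1038 and 525 in replicates 1, 2 and 3. These were 10.8 CPM against 18.9, 17.4 and 16.8 CPM, so all 3 labelled knockdown libraries lay above the control library and close to each other. The ratios to the control library were 1.74 (95% counting interval 1.44 to 2.13), 1.61 (1.32 to 1.96) and 1.55 (1.25 to 1.93). The mean of 17.7 ± 1.07 CPM (SD, n = 3) gave a mean log2 difference of 0.70 ± 0.09 (SD, n = 3), larger than the spread between the labelled knockdown libraries. It was 0.55 after removal of the trends with transcript length and GC content.

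Of the 38 genes, 15 lay below the control library in all 3 labelled knockdown libraries (39.5%, where 34.2% of all genes did) and 6 lay above it in all 3 (15.8%, against 30.1%). These counts depend on the scaling: with total counts in place of TMM factors, 9 genes lay below (23.7%, where 29.3% of all genes did) and 8 above (21.1%, against 35.6%), so that the share below was then under that of all genes. None of the 38 was 1.5-fold lower in all 3, where 9.61% of all genes were. In 9 of the 38 genes the 95% counting interval of the ratio lay below 1 in each labelled knockdown library (22.2% of all genes), and in ZNF331 alone it lay above 1 in each (17.7%). These intervals cover counting error only. They compare libraries and not conditions.

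ZNF415, ZNF816, ZNF600, ZNF880 and ZNF845 had the lowest mean differences. ZNF415 (ENSG00000170954.12; chromosome 19, 53107879 to 53133077, minus strand), reported to act on p53 and AP-1 reporters, had 635 counts in the control library and 1073, 1097 and 473 in replicates 1, 2 and 3. That was 26.5 CPM against 17.2, 18.4 and 15.1 CPM, all below the control library, with a mean log2 difference of -0.65 ± 0.14 (SD, n = 3). Of these 5 genes, ZNF415 and ZNF600 had the smallest spread between the labelled knockdown libraries. ZNF600 (ENSG00000189190.11) had 275 counts against 496, 451 and 279, or 11.5 CPM against 7.97, 7.55 and 8.93 CPM, a mean log2 difference of -0.49 ± 0.12 (SD, n = 3).

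ZNF816 (ENSG00000180257.14) had 186 counts in the control library and 294, 239 and 168 in the replicates. Its levels of 7.75 CPM against 4.72, 4.00 and 5.38 CPM gave a mean log2 difference of -0.73 ± 0.21 (SD, n = 3). The gene overlaps the annotated readthrough ZNF816-ZNF321P, which holds 7.89% of its windows. ZNF880 (ENSG00000221923.9; chromosome 19, 52369917 to 52385795, plus strand), a gene of 13 finger matches whose windows are shared by 0.367% only, had 1028 counts against 1505, 1401 and 1013. Its 42.8 CPM in the control library lay above the 24.2, 23.5 and 32.4 CPM of the replicates, and the mean log2 difference was -0.70 ± 0.26 (SD, n = 3).

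ZNF845 (ENSG00000213799.13; chromosome 19, 53333746 to 53356906, plus strand) had 765 counts in the control library and 1104, 835 and 850 in the replicates. It had 31.9 CPM against 17.7, 14.0 and 27.2 CPM, so that replicate 3 lay much nearer to the control library than replicates 1 and 2 did. The mean log2 difference was -0.75 ± 0.49 (SD, n = 3) and -1.01 in replicates 1 and 2. ZNF845 thus had the lowest mean of the 38 genes and the widest spread of these 5. After removal of the length and GC trends the mean differences were -1.08 (ZNF845), -0.56 (ZNF816), -0.51 (ZNF600), -0.47 (ZNF415) and -0.43 (ZNF880).

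Among the genes with the highest mean differences after ZNF331, labelled replicate 3 carried most of the size. ZNF836 (ENSG00000196267.14), a gene of 24 finger matches, had 38 counts in the control library and 132, 103 and 127 in the replicates. Its 1.58 CPM compared with 2.12, 1.73 and 4.07 CPM, and the counting intervals of the ratio included 1 in replicates 1 (0.79 to 2.36) and 2 (0.63 to 1.94) but not in replicate 3 (1.51 to 4.51). ZNF347 (ENSG00000197937.13) had 403 counts against 1221, 1116 and 920, with log2 differences of 0.22, 0.15 and 0.81. Its mean of 0.40 ± 0.36 (SD, n = 3) turned to -0.09 after removal of the length and GC trends; at 7960 nt it has the longest transcript of the cluster. ZNF665 (110 counts against 329, 301 and 210) had log2 differences of 0.20, 0.14 and 0.55. ZNF841 (180 counts against 442, 425 and 391) had -0.08, -0.07 and 0.74.

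ZNF350, also called ZBRK1, a partner of BRCA1 in repression, was among the steadiest genes. It (ENSG00000256683.7) had 129 counts in the control library and 345, 323 and 183 in the replicates, or 5.37 CPM against 5.54, 5.41 and 5.86 CPM. Its ratios were 1.03 (0.77 to 1.40), 1.01 (0.75 to 1.37) and 1.09 (0.78 to 1.53), so counting error allows differences of up to about these bounds. ZNF534, outside the comparison for its low counts, had ratios of 2.31 (0.68 to 12.3), 3.89 (1.20 to 19.9) and 1.02 (0.17 to 6.99). Its interval lay above 1 in replicate 2 alone.

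**Figure D2:**
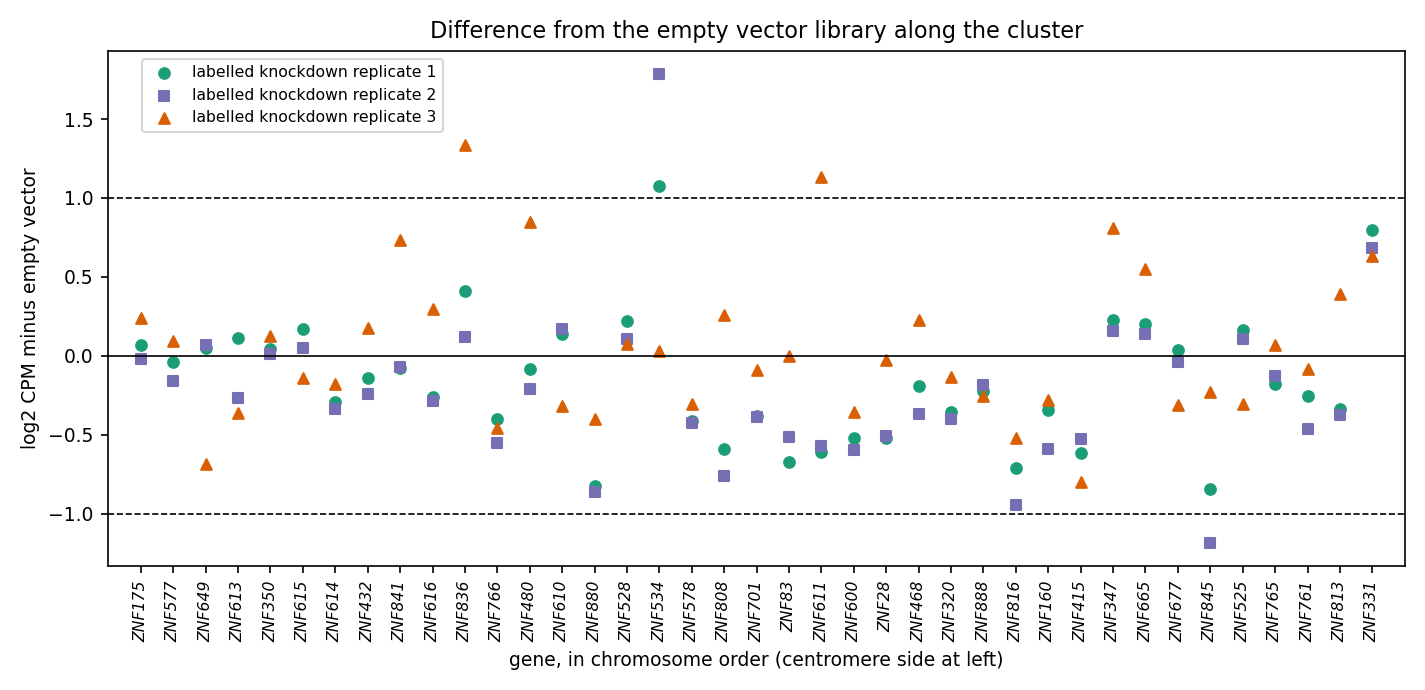
Log2 CPM of each labelled knockdown library minus the control library for the 39 genes in chromosome order, with dashed lines at the 2-fold limits. No gene passes a limit in all 3 libraries, the 3 symbols of ZNF331 sit together between 0.63 and 0.80, and replicates 1 and 2 lie below 0 for the 13 neighbours from ZNF578 to ZNF415.

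Of the 38 genes, 25 were below the control library in replicate 1 (65.8%), 28 in replicate 2 (73.7%) and 21 in replicate 3 (55.3%). No share of all genes was counted for single libraries, so these 3 shares do not by themselves show an excess. In replicates 1 and 2 both, 25 of the 38 genes were lower (65.8%, where 44.4% of all genes were) and 10 were higher (26.3%, against 48.4%). The median log2 difference was -0.21 in replicate 1, -0.28 in replicate 2 and -0.05 in replicate 3, where the medians over all genes were 0.03, 0.05 and -0.15. The cluster's median was thus under that of all genes in replicates 1 and 2 only. In replicate 3 it was above that of all genes, so lying below the control library there was not particular to the cluster. The lower genes were next to each other in part: the 13 neighbours from ZNF578 to ZNF415 were all below the control library in replicates 1 and 2, with a median mean log2 difference of -0.51. This stretch was picked as the longest with both replicates below, so the sign of that median was fixed by the choice. How long such stretches run elsewhere was not counted. Some of the 13 overlap, such as ZNF468 and ZNF320, so they are not separate observations. In replicate 3 these 13 had a median of -0.14, beside -0.15 over all genes, with 10 of them below. The next longest stretch was of 4 genes, from ZNF614 to ZNF616.

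Few of these differences were large. The edgeR shares given below for the fit without replicate 3 are over a wider set of genes than the cluster's. Of all genes, 15797 reached the minimum level without replicate 3, while 25016 entered that fit. In the cluster 38 of the 39 reached it, so the shares compared are not alike in level. Both replicates 1 and 2 were at least 1.5-fold below the control library in 4 of the 38 genes (ZNF880, ZNF808, ZNF816 and ZNF845), where 15.5% of all genes were, and above it in 1 (ZNF331), where 20.3% of all genes were. Without replicate 3, edgeR's test called 19 of the 39 genes lower (48.7%, where 21.2% of 25016 genes were) and 2 higher (5.13%, against 23.5%), the 2 being ZNF331 and ZNF534. In that fit the edgeR adjusted p was 1.66e-19 for ZNF845, 8.25e-17 for ZNF880, 9.44e-10 for ZNF808 and 1.21e-06 for ZNF331. Its spread comes from replicates 1 and 2 alone, which differ so little that 11177 genes in all passed, so it compares the control library with that pair. None of the 39 passed without replicate 1 or without replicate 2, where the fits called 17 and 39 genes in all.

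Replicate 3 stood furthest from replicates 1 and 2 in ZNF611, a protein reported to bind SVA retrotransposons. ZNF611 (ENSG00000213020.10; chromosome 19, 52702813 to 52735073, minus strand) had 561 counts in the control library and 953, 939 and 1601 in replicates 1, 2 and 3. Its levels were 23.4 CPM in the control library, 15.3 and 15.7 CPM in replicates 1 and 2 and 51.3 CPM in replicate 3. The control library thus lay between the labelled knockdown libraries, and the mean log2 difference of -0.02 ± 0.99 (SD, n = 3) describes none of them. Without replicate 3 it was -0.59, and it was 0.28 without replicate 1 and 0.26 without replicate 2.

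In 2 of the 38 genes replicate 3 was at least 2-fold above the mean of replicates 1 and 2, ZNF611 (1.72 on the log2 scale) and ZNF836 (1.07), where 7.42% of all genes were. ZNF480 lay just short at 0.99, with 1065 counts in the control library and 2606, 2291 and 2491 in the replicates. None was 2-fold below, where 14.7% of all genes were. ZNF649 came nearest to that at -0.75. The median log2 difference of replicate 3 from that mean was 0.23 over the 38 genes, beside -0.17 over all genes.

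ZNF808, needed for human pancreas development and known to silence a primate transposable element family, was, like ZNF611, below the control library in replicates 1 and 2 and above it in replicate 3. In all, 10 of the 38 genes were so placed. For scale, 65.8% of the 38 were below in replicates 1 and 2 and 39.5% in all 3, beside 44.4% and 34.2% of all genes. ZNF808 (ENSG00000198482.14) had 733 counts in the control library and 1263, 1076 and 1139 in the replicates, or 30.5 CPM against 20.3, 18.0 and 36.5 CPM. Its log2 differences were -0.59, -0.76 and 0.26, and the counting intervals of the ratio lay below 1 in replicates 1 and 2 (0.58 to 0.76 and 0.52 to 0.68) and above 1 in replicate 3 (1.05 to 1.37). ZNF845, whose upstream bases are as close to those of ZNF611, had -0.84, -1.19 and -0.23. ZNF611, ZNF808 and ZNF845 were all below the control library in replicates 1 and 2, as were 25 of the 38 genes, and took different values in replicate 3. Upstream bases were aligned for a few chosen genes only, and a relation between start and level was not tested.

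**Figure D3:**
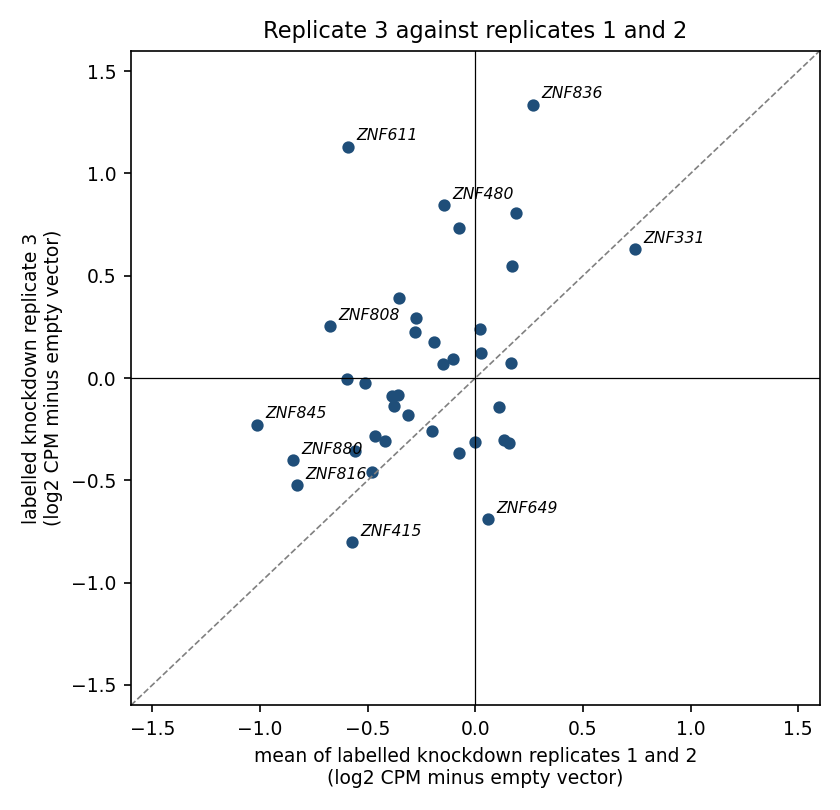
Log2 difference from the control library in labelled replicate 3 (vertical) against the mean of replicates 1 and 2 (horizontal) for the 38 genes tested, with the line of equality dashed. Both axes share the control library, so no correlation is given; ZNF611 and ZNF836 lie far above the line, ZNF649 lies below it, and ZNF331 lies near it at the right.

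The 14 tested genes with ACCCGGAAGC in a window had a median mean log2 difference of -0.20 (-0.75 to 0.19), and the 17 tested genes with a window but without it had -0.09 (-0.65 to 0.70). The medians were -0.39 against -0.14 in replicate 1, -0.41 against -0.27 in replicate 2 and -0.07 against 0.09 in replicate 3, lower with the string in each library. The ranges overlap, and no test of the difference was made. The string was picked from windows of these same genes. Genes with it also had a higher median level, 5.45 against 2.91 CPM per kb, and the part of level was not tested. Across the 38 genes the Spearman correlation of the mean log2 difference was -0.01 with the number of finger matches, 0.06 with transcript length and -0.33 with the mean CPM, as descriptions over genes that share libraries. The 23 tested genes that share 5% or fewer of their windows with another gene had a median of -0.07. Genes on the plus strand (16 tested) had -0.14 and those on the minus strand (22) had -0.11.

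Zinc finger genes elsewhere in the genome were compared with the cluster. They were chosen by symbol, as ZNF plus a number, and were not limited to genes with a KRAB box. Of 189 tested ZNF genes on other parts of chromosome 19, 95 were above the control library in all 3 labelled knockdown libraries (50.3%) and 32 below it (16.9%), the reverse balance to the cluster's 6 and 15 of 38. That balance depends on the scaling: with total counts the cluster had 8 above and 9 below. The other ZNF genes were not counted in this way under total counts. For these 189 genes and those of other chromosomes the medians were as follows. The median mean log2 difference of the 189 was 0.24, and that of 212 tested ZNF genes on other chromosomes was 0.27, against -0.11 in the cluster. In single libraries the medians were 0.24, 0.20 and 0.24 for chromosome 19 and 0.26, 0.20 and 0.32 for other chromosomes, in replicates 1, 2 and 3. By the 2-fold rule 4 of the 189 were higher and 1 lower, and 2 of the 212 were higher and 0 lower. The order of the 3 medians held under every alternative scaling, minimum level, prior count and left-out replicate and after trend removal. These are descriptions of lists over the same 4 libraries, and no test of the difference between lists was made.

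**Figure D4:**
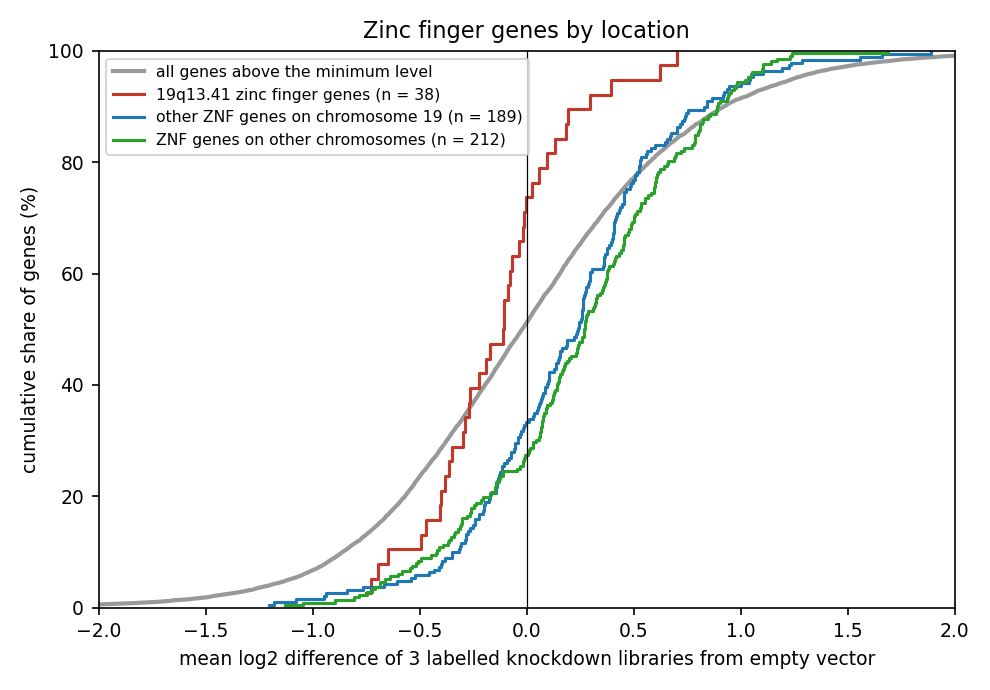
Cumulative share of genes (vertical, %) at or below each mean log2 difference of the 3 labelled knockdown libraries from the control library (horizontal), for the 38 genes of the cluster, 189 other ZNF genes of chromosome 19, 212 ZNF genes of other chromosomes and all 15880 genes tested. The cluster's curve lies to the left of both other ZNF curves, with medians of -0.11, 0.24 and 0.27, and is steeper than that of all genes.

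Genes lying between and across these zinc finger genes were put to the same 2-fold rule. Of 77 such genes in the tables, 8 reached the minimum level, and 0 of these were higher or lower 2-fold in all 3 labelled knockdown libraries. Their median was 0.02, with a range from -0.66 to 0.56. ZNF702P, a transcribed pseudogene, had 193 counts in the control library and 300, 278 and 181 in the replicates, log2 differences of -0.73, -0.78 and -0.47. PPP2R1A, the scaffold subunit of the phosphatase PP2A, had log2 differences of -0.65, -0.49 and -0.77. Both were chosen after their values were seen, and they are the 2 of the 8 below the control library in all 3. The 1 gene above it in all 3 was ZNF528-AS1, with log2 differences of 0.32, 0.31 and 0.21.

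Cofactors through which KRAB proteins act were measured in the same libraries. TRIM28, the scaffold that binds the KRAB box, had 7496 counts in the control library and 13331, 13396 and 7111 in the replicates. That was 312 CPM against 214, 224 and 228 CPM, a mean log2 difference of -0.49 ± 0.05 (SD, n = 3), with all 3 libraries below the control library. SETDB1, which methylates the histones at the bound site, had 1347 counts against 3434, 3314 and 2365, or 56.1 CPM against 55.2, 55.5 and 75.7 CPM. Only replicate 3 of SETDB1 stood off the empty vector level, at a log2 difference of 0.43.

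Of the 28 cofactor and heterochromatin genes, all tested, 2 were 2-fold higher (7.14%, beside 3.65% of all genes) and 1 was 2-fold lower (3.57%, beside 2.72%) in each labelled knockdown library. CBX5, which encodes HP1 alpha, had 705 CPM in the control library and 1485, 1497 and 1477 CPM in the replicates. ATRX, a chromatin remodeller that deposits histone variants with DAXX, had 102 CPM against 244, 228 and 246 CPM. SUMO2, the modifier that couples TRIM28 to SETDB1, was the lower gene, with 214 CPM against 80.0, 82.2 and 87.6 CPM. The mean log2 differences of CBX5, ATRX and SUMO2 were 1.08 ± 0.01, 1.22 ± 0.06 and -1.36 ± 0.07 (SD, n = 3). The other HP1 genes, CBX1 and CBX3, and DAXX went the other way from CBX5 and ATRX. In replicates 1, 2 and 3 CBX1 had log2 differences of -1.20, -1.11 and -0.46. CBX3 had -0.37, -0.23 and -0.76, and DAXX had -1.08, -1.07 and -0.54. The list had a median of -0.35, with 8 genes above the control library in all 3 (28.6%, beside 30.1% of all genes) and 13 below it (46.4%, beside 34.2%). Its median was -0.30 after removal of the length and GC trends. The values of single cofactors given here are without that removal.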

How the data were processed

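Per the submitters' processing notes, STAR 2.7.11b, featureCounts 2.0.6 and DESeq2 were used with hg38 (GRCh38); their settings, the strand setting and the annotation release are not given in the sources used here. For each library the authors deposited raw counts by gene, in tables whose columns carry names (a LacZ control and numbered GKAP_KIF27 sets) other than the sample labels; each table was assigned by the series' record. Libraries were stranded (dUTP) and made after ribosomal RNA removal, per the labels' protocols.

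Counts were scaled to CPM with TMM factors from edgeR 4.0.16 (R 4.3.3) on genes kept by filterByExpr; log2 CPM used a prior count of 2. Genes with a mean CPM of at least 1 over the group means entered. Between 65.2% and 68.0% of nonzero counts were even. A count of 2 for some read pairs would raise that share, but a count of 2 for all would leave no odd counts. The 95% Clopper-Pearson intervals used counts divided by 2 and rounded down, which widens them. edgeR's quasi-likelihood test and DESeq2 1.42.0 were fitted on all genes at an adjusted p of 0.05. Coordinates and lengths came from GENCODE 29, which matched 58269 of 62696 identifiers. Finger matches were counted in translated GENCODE coding sequences. Length and GC trends were removed by lowess (span 0.3, statsmodels 0.14.6).

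Genes given in full are the 5 highest and 5 lowest by mean log2 difference, the 3 highest per kb, any past 2-fold, and ZNF331, ZNF350, ZNF534, ZNF808 and ZNF611; ZNF480 was added after its value was seen. The genes and lists were chosen with earlier results of these data known. Alternatives were other scalings, minimum levels, prior counts, folds, left-out libraries and trend removal.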

Additional observations from a re-analysis of the deposited data

How the results depend on the processing

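The counts of 0 genes of the cluster 2-fold higher and 0 lower in each labelled knockdown library held under each alternative scaling, minimum level, prior count, left-out replicate and trend removal run, and when the mean was used; a 1.5-fold rule gave 1 higher gene, ZNF331. The median log2 difference of -0.11 stayed below 0 throughout, from -0.24 to -0.11 over the fits without 1 replicate; it was -0.29 after removal of length and GC trends, and the cause of that move was not tested. Total counts moved it to -0.02 and the median of all genes to 0.07. edgeR's test called 0 genes; DESeq2's Wald test called 253, and edgeR fits without 1 replicate, added after seeing the data, called 17 to 11177, the highest without replicate 3. Of 175 values of the 16 genes given in full, 7 moved by more than 1 SD between replicates and 6 changed sign, in ZNF347, ZNF611, ZNF649 and ZNF841. No paired analysis was possible because only 1 control library exists and its label carries no number. At 6 and 8 counts in ZNF534, depth limits any statement on its difference.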
